A study of Homo sapiens with 9 samples.

Results

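DTL and 9 further genes of the ubiquitin ligases that act around S phase were followed across 3 groups of HCT116 libraries. They were found by symbol on primary chromosomes in the deposited table of normalized counts, which gave 10 of its 63677 genes. A second row named CKS1B, on chromosome 5, reached at most 5.86 normalized counts and was left out in favour of the row with the higher mean. The set was chosen by function around DTL, and DTL itself was selected on its low level in the siRNF40 libraries in an earlier analysis of the same files. The values of DTL in siRNF40 against either other group are therefore a description, given with no test. Its tests in siTG2 use the same siControl libraries, so they are not independent of that choice. The other 9 genes were also listed with earlier results known, so that counts over the set describe these genes and carry no test of the set.

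A ubiquitin ligase of the cullin-RING type joins a scaffold (a cullin), an adaptor and an interchangeable receptor that binds the protein to be degraded. DTL, also called CDT2, is a receptor of the CUL4 ligase: with the adaptor DDB1 and the scaffold CUL4A or CUL4B it recognises proteins bound to the sliding clamp PCNA on replicating DNA, among them the licensing factor CDT1, the inhibitor CDKN1A (p21) and the histone H4 lysine 20 methyltransferase SETD8. SKP2, CCNF and FBXW7 are F-box receptors of the CUL1 ligase (SCF), and CKS1B is the small cofactor with which SKP2 binds the inhibitor CDKN1B (p27). FBXO5, also called EMI1, carries an F-box too but is best known as an inhibitor of the anaphase-promoting complex (APC/C), which it holds back during S phase.

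HCT116 is a human colon carcinoma line, labelled wild type in all groups, and all cells had received small interfering RNA (siRNA) by lipid transfection 48 h before harvest. The groups were siControl, siRNF40 (against RNF40, a subunit of the ligase that ubiquitinates histone H2B) and siTG2 (against TGM2, which encodes transglutaminase 2), with 3 libraries of polyadenylated RNA each. The series asks which messenger RNAs depend on either protein. The labels do not say whether the replicates were separate cultures, so p-values measure the spread between these libraries, which may be technical.

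The libraries held 29161285 to 35743918 reads assigned to genes, and 1 read was worth 0.88 to 1.10 normalized counts. RNF40 stood at 497 to 535 normalized counts in siRNF40 against 2565 to 3004 in siControl, and TGM2 at 59.4 to 155 in siTG2 against 554 to 702, so each target was low in the libraries labelled for it. In the other knockdown, RNF40 had a log2 fold change of -0.27 in siTG2 (limma, adjusted p = 0.0192, 0.0077 to 0.26 over the alternatives), with all 3 libraries below the controls. TGM2 had 0.54 in siRNF40 (adjusted p = 0.0633, 0.00082 to 0.17), with all 3 above them, and 6 of 19 alternatives changed the call of either gene, among them both other scalings and the removal of siControl replicate 1 or 2 for RNF40, and the removal of siTG2 replicate 1 or 3 for both. Of 8 epithelial markers 7 had a mean of at least 10, against 2 of 8 fibroblast markers and 0 of 8 leukocyte and red cell markers. The intestinal markers among the 8 were low, with VIL1 at or near 0 and CDH17 at 2.1 to 22.8 normalized counts. For siControl, siRNF40 and siTG2 in turn, the epithelial sum was 92224 to 101257, 136360 to 163972 and 83473 to 94472. The fibroblast sum was 822 to 998, 1372 to 1705 and 1022 to 1176, nearly all of it COL1A1, with DCN, LUM and COL1A2 at or near 0 in siControl. The summed counts of 18 reference genes of S phase were, in the same order, 31710 to 32992, 19491 to 20283 and 22634 to 23032. Those of 18 reference genes of G2 and mitosis were 89775 to 93142, 43931 to 47324 and 75349 to 78109. Fewer cells in a cell cycle phase and less RNA per cell cannot be told apart in such bulk libraries, and the part of cell cycle phase in the results below was not tested.

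In siRNF40, CUL4B, FBXO5, SKP2, FBXW7, SETD8 and CCNF fell and DDB1 rose, while CUL4A and CKS1B did not pass the test. In siTG2, DTL, SKP2, CKS1B, FBXO5, SETD8, CUL4A and DDB1 fell and CCNF rose, while CUL4B and FBXW7 did not pass. A gene passed at a Benjamini-Hochberg adjusted p under 0.05 over the 17663 genes with a mean of at least 10, in limma on log2(normalized count + 1), and all 10 genes had such a mean. In siRNF40 against siControl, 6 of the 9 genes other than DTL were called lower and 1 higher, where 23.6% of all genes tested were called lower and 21.7% higher. With DTL, 7 of 10 genes had all siRNF40 libraries below all controls (26.8% of all genes) and 1 had them all above (26.4%). In siTG2 against siControl, 7 of 10 were called lower and 1 higher, where 18.5% and 12.8% of all genes were. All siTG2 libraries lay below all controls for 7 genes (26.1% of all genes) and above them for 2 (20.5%). The median log2 fold change of the 10 genes was -0.48 in siRNF40, where that of all genes tested was 0.02. It includes DTL at -2.40, the value DTL was chosen for. In siTG2 the median of the 10 genes was -0.23, where that of all genes was -0.01.

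The share of calls in siTG2 moves with the scaling of the libraries. The deposited scaling gave 3270 genes lower and 2263 higher in siTG2, and scaling to equal totals gave 1890 lower and 3872 higher and moved the median of all genes to 0.13. Under that scaling and under quantile normalization, 3 of the 10 genes, DTL, SKP2 and CKS1B, were called lower in siTG2. The small decreases of DDB1, CUL4A, SETD8 and FBXO5 in siTG2 are the calls that end.

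**Figure D1:**
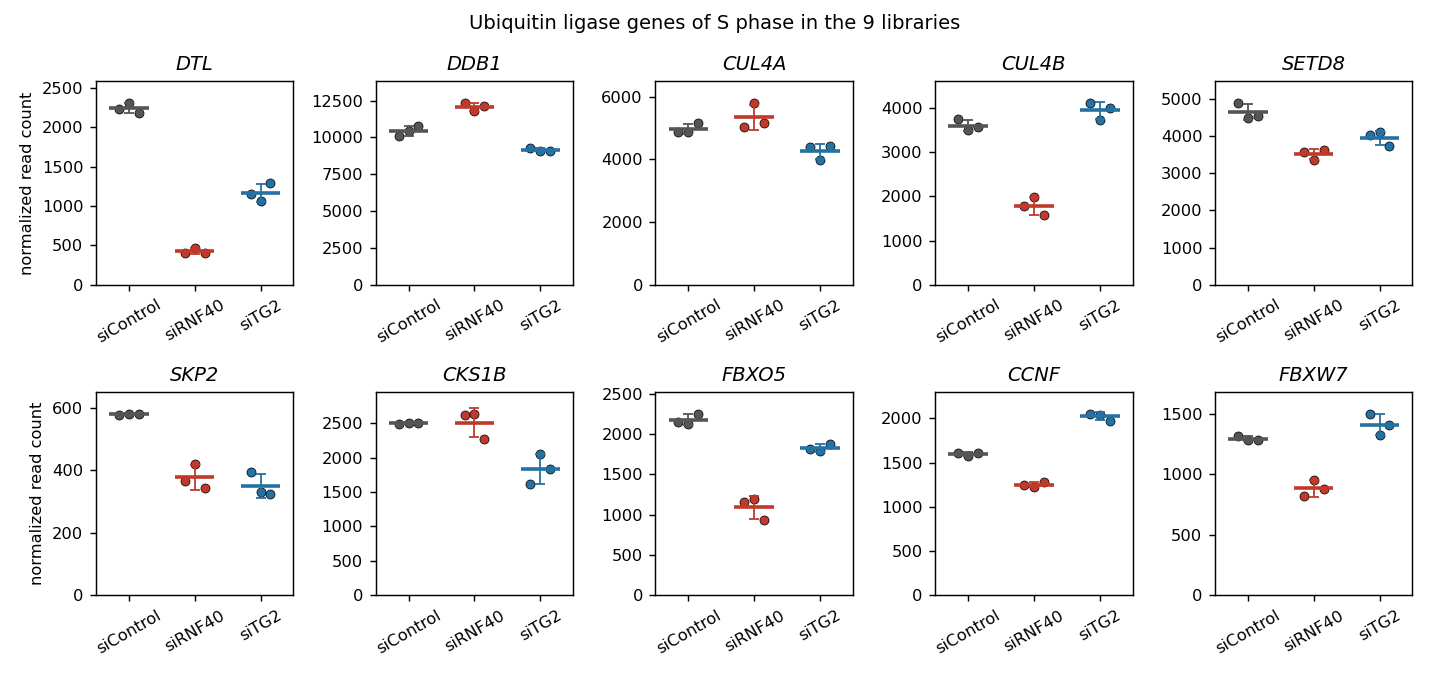
Normalized read counts of the 10 genes in each library (points), with the mean (line) and SD (bar) of the 3 libraries of siControl, siRNF40 and siTG2; each axis starts at 0. DTL has the widest fold range of the set, from 397 to 2310, and CCNF lies below the controls in siRNF40 and above them in siTG2.

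DTL (ENSG00000143476, hg19 chromosome 1 from 212208919 to 212280742, plus strand) stood at 2236, 2310 and 2180 normalized counts in siControl replicates 1, 2 and 3. It stood at 408, 467 and 397 in siRNF40 and at 1150, 1066 and 1293 in siTG2. The 3 groups did not overlap: every siRNF40 library lay below every siTG2 library, and every siTG2 library below every control. The siRNF40 mean was 18.9% of the siControl mean, a log2 difference of -2.40 with a 95% interval of -2.60 to -2.20, and 43 of the 17663 genes tested had a lower value. In siTG2 the mean was 52.2% of siControl, and DTL fell by 0.94 on the log2 scale (SE 0.095, limma, adjusted p = 3.99e-07). That test shares its siControl libraries with the fall DTL was chosen for, so it is not independent of the choice. The direct difference of siRNF40 and siTG2 was -1.46 (95% interval -1.66 to -1.26), given without a test.

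DDB1 (ENSG00000167986, chromosome 11 from 61066923 to 61110068, minus strand), the adaptor that links DTL to the scaffold, had 10088, 10448 and 10774 normalized counts in siControl. It had 12343, 11759 and 12108 in siRNF40 and 9258, 9093 and 9107 in siTG2. The siRNF40 libraries were all above and the siTG2 libraries all below the controls. DDB1 rose in siRNF40 by 0.21 (log2, SE 0.056, limma, adjusted p = 0.00459). It fell by 0.19 in siTG2 (SE 0.056, adjusted p = 0.0141), a call that ended under equal totals, under quantile normalization (where the sign turned, to 0.018) and without siControl replicate 3 (adjusted p 0.0066 to 0.84 over the alternatives). DDB1 overlaps DAK on the opposite strand, which had 22.5% of its mean count, and whether strand was used in counting is not given in the sources used here. DAK itself had a log2 fold change of 0.19 in siRNF40 (adjusted p = 0.0764) and -0.05 in siTG2 (adjusted p = 0.693).

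CUL4A (ENSG00000139842, chromosome 13 from 113862552 to 113919399, plus strand) and CUL4B (ENSG00000158290, chromosome X from 119658464 to 119709649, minus strand) are the paralogous scaffolds of this ligase. CUL4A had 4875, 4854 and 5151 normalized counts in siControl, 5039, 5799 and 5158 in siRNF40, and 4378, 3975 and 4409 in siTG2. Its siRNF40 libraries overlapped the controls and its siTG2 libraries lay below them. The log2 fold change of CUL4A was 0.10 in siRNF40 (95% interval -0.04 to 0.25, limma, adjusted p = 0.247). CUL4A fell by 0.22 in siTG2 (SE 0.069, adjusted p = 0.0194), a call that ended under both other scalings and without siControl replicate 3 or siTG2 replicate 2 (adjusted p 0.0068 to 0.57 over the alternatives). CUL4A overlaps PCID2, on the opposite strand and at 46.6% of its mean count, which rose by 0.21 in siRNF40 (adjusted p = 0.0223) and fell by 0.25 in siTG2 (adjusted p = 0.0126). How far the reads of either gene enter the count of the other was not tested.

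CUL4B had 3747, 3495 and 3567 normalized counts in siControl, 1774, 1997 and 1574 in siRNF40, and 4120, 3731 and 3993 in siTG2. All siRNF40 libraries lay below all other libraries, and the siTG2 libraries overlapped the controls. CUL4B fell in siRNF40 by 1.02 (log2, SE 0.081, limma, adjusted p = 7.76e-09), to 49.5% of the control mean. Its log2 fold change in siTG2 was 0.13 (95% interval -0.04 to 0.30, adjusted p = 0.237), and it was called higher there under quantile normalization (0.28) and equal totals (0.27).

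The scaffold pair was also compared within each library, as normalized counts per kb of the longest annotated transcript with complete ends. The ratio of CUL4B to CUL4A was 0.888, 0.832 and 0.800 in siControl, 0.407, 0.398 and 0.353 in siRNF40, and 1.088, 1.085 and 1.047 in siTG2. The groups did not overlap: the ratio was lowest in siRNF40 and highest in siTG2. For either knockdown against siControl, an exact two-sided permutation test had p = 0.1, the smallest that 3 against 3 libraries allows. The summed level of both was 1610 ± 35.7 per kb in siControl (SD, n = 3), 1305 ± 110 in siRNF40 and 1556 ± 81.7 in siTG2. CUL4B made up 45.6% of that sum in siControl, 27.8% in siRNF40 and 51.8% in siTG2. A ratio within a library does not depend on the scaling between libraries, but its absolute size depends on the transcript lengths taken. Reads of PCID2, with log2 fold changes of 0.21 in siRNF40 and -0.25 in siTG2, may enter the CUL4A count. Their part in the ratio was not tested.

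**Figure D2:**
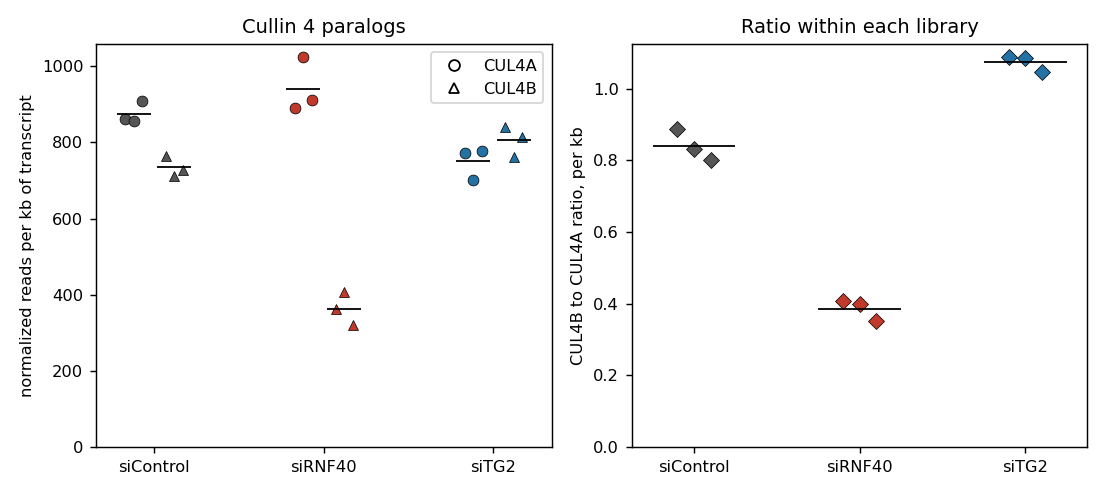
Left, normalized reads per kb of transcript for CUL4A (circles) and CUL4B (triangles) in each library, with group means as lines. Right, the ratio of CUL4B to CUL4A in the same libraries, which runs from 0.353 to 0.407 in siRNF40, from 0.800 to 0.888 in siControl and from 1.047 to 1.088 in siTG2.

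The ratio of DTL to DDB1 per kb, receptor to adaptor, was 0.218, 0.218 and 0.199 in siControl and 0.122, 0.116 and 0.140 in siTG2. All siTG2 values lay below all controls (two-sided exact permutation p = 0.1, the smallest possible). The siControl libraries here are again those of the fall DTL was chosen for. In siRNF40 the ratio was 0.0326, 0.0391 and 0.0323, below both other groups, given without a test.

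SETD8 (ENSG00000183955, now named KMT5A, chromosome 12 from 123868320 to 123893905, plus strand) encodes the methyltransferase that DTL sends to degradation in S phase. It had 4896, 4498 and 4535 normalized counts in siControl, 3559, 3360 and 3631 in siRNF40, and 4019, 4105 and 3732 in siTG2. Both knockdowns lay below all controls, with siRNF40 below siTG2 in every library. SETD8 fell in siRNF40 by 0.40 (log2, SE 0.066, limma, adjusted p = 6.38e-05). It fell by 0.23 in siTG2 (SE 0.066, adjusted p = 0.0115), a call lost under both other scalings and without siControl replicate 1 or siTG2 replicate 3 (adjusted p 0.0056 to 0.49 over the alternatives).

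SKP2 (ENSG00000145604, chromosome 5 from 36152091 to 36184421, plus strand), the receptor that targets CDKN1B, was the least abundant of the set per kb in siControl and siTG2. Its normalized counts were 576, 582 and 581 in siControl, 367, 421 and 345 in siRNF40, and 396, 332 and 324 in siTG2. Both knockdowns lay below all controls and overlapped each other. SKP2 fell in siRNF40 by 0.62 (log2, SE 0.12, limma, adjusted p = 0.000371) and by 0.73 in siTG2 (SE 0.12, adjusted p = 0.000151). The direct difference of the knockdowns was 0.11, with a 95% interval of -0.15 to 0.36 (adjusted p = 0.486), which leaves room for a difference in either direction.

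CKS1B (ENSG00000173207, chromosome 1 from 154947129 to 154951725, plus strand), the cofactor of SKP2, was the most abundant of the set per kb in siControl, while DDB1 averaged 2031 and CKS1B 2010 per kb in siTG2 and their libraries overlapped in siRNF40. It had 2491, 2506 and 2509 normalized counts in siControl, 2613, 2641 and 2270 in siRNF40, and 1610, 2052 and 1837 in siTG2. The siRNF40 libraries lay on both sides of the controls, and the siTG2 libraries lay below both other groups. Its log2 fold change in siRNF40 was -0.00 (95% interval -0.18 to 0.18, limma, adjusted p = 0.999), and it fell by 0.46 in siTG2 (SE 0.087, adjusted p = 0.000498). The difference between the knockdowns was 0.46 (SE 0.087, adjusted p = 0.000194). Named pseudogenes of CKS1B summed to 0.0387% of its mean count.

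The ratio of SKP2 to CKS1B per kb was 0.0561, 0.0563 and 0.0561 in siControl, 0.0341, 0.0387 and 0.0368 in siRNF40, and 0.0596, 0.0392 and 0.0428 in siTG2. It was below all controls in siRNF40 (two-sided exact permutation p = 0.1, the smallest possible). In siTG2, replicate 1 lay above the controls and the other libraries below them (exact permutation p = 0.4).

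FBXO5 (ENSG00000112029, chromosome 6 from 153291664 to 153304714, minus strand), the APC/C inhibitor, had 2150, 2127 and 2253 normalized counts in siControl. It had 1154, 1191 and 932 in siRNF40 and 1809, 1787 and 1881 in siTG2. The 3 groups did not overlap, with siRNF40 lowest and siTG2 between. FBXO5 fell in siRNF40 by 1.00 (log2, SE 0.088, limma, adjusted p = 3.26e-08), to 50.2% of the control mean. It fell by 0.25 in siTG2 (SE 0.088, adjusted p = 0.0354), a call that 10 of 19 alternatives ended, among them the removal of any siControl or siTG2 library (adjusted p 0.0054 to 0.35 over the alternatives).

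CCNF (ENSG00000162063, chromosome 16 from 2479395 to 2508855, plus strand) encodes cyclin F, a receptor that takes down replication and centriole proteins in G2. Its normalized counts were 1606, 1573 and 1610 in siControl, 1244, 1220 and 1275 in siRNF40, and 2053, 2041 and 1974 in siTG2. All siRNF40 libraries lay below and all siTG2 libraries above the controls. CCNF fell in siRNF40 by 0.36 (log2, SE 0.072, limma, adjusted p = 0.000437) and rose by 0.34 in siTG2 (SE 0.072, adjusted p = 0.00118). Both calls held in all 19 alternatives.

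FBXW7 (ENSG00000109670, chromosome 4 from 153242410 to 153457253, minus strand), the receptor for cyclin E, MYC and JUN, had 1320, 1286 and 1282 normalized counts in siControl. It had 820, 957 and 880 in siRNF40 and 1504, 1325 and 1409 in siTG2. The siRNF40 libraries were all below and the siTG2 libraries all above the controls. FBXW7 fell in siRNF40 by 0.55 (log2, SE 0.086, limma, adjusted p = 3.27e-05), to 68.3% of the control mean. Its log2 fold change in siTG2 was 0.12 (95% interval -0.06 to 0.30, adjusted p = 0.303), and 0.27 with a call under scaling to equal totals.

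**Figure D3:**
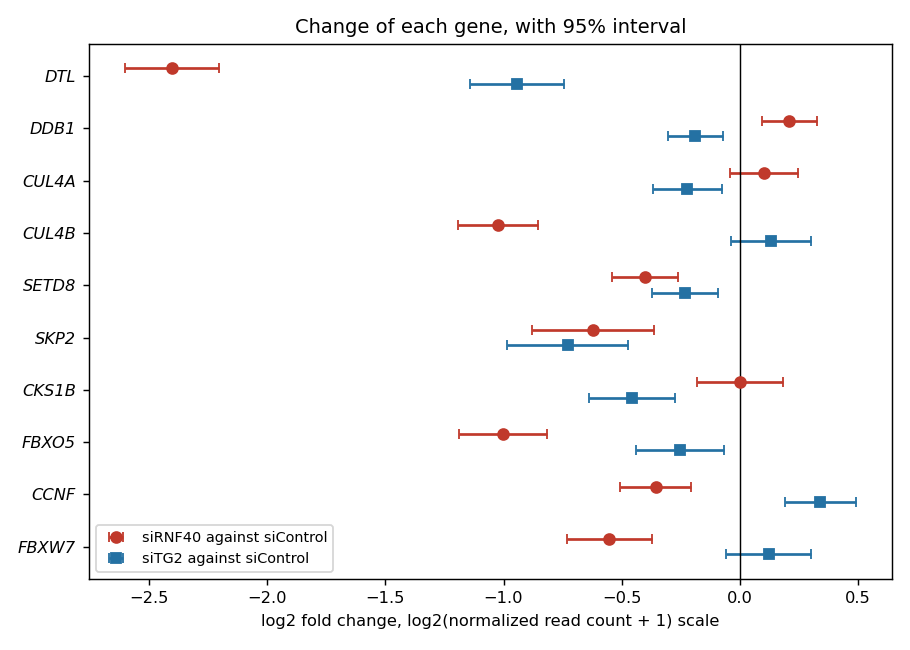
Log2 fold change of each gene against siControl with its 95% interval, for siRNF40 (circles) and siTG2 (squares), on the log2(normalized read count + 1) scale. CUL4B (-1.02) and FBXW7 (-0.55) lie below 0 in siRNF40, with siTG2 intervals that span 0, and CCNF lies on opposite sides of 0; the value of DTL in siRNF40 (-2.40) is a description, since DTL was chosen for it.

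The contrast of siRNF40 with siTG2 tests whether the knockdown effects differ, since the shared controls cancel. Of the 9 genes other than DTL, 5 were called lower in siRNF40 than in siTG2 and 3 higher, where 26.6% of all genes were called in each direction. With DTL, 6 of 10 genes had all siRNF40 libraries below all siTG2 libraries (29.3% of all genes) and 3 had them all above (29.0%). CUL4B (-1.15, SE 0.081, adjusted p = 8.03e-10), FBXO5 (-0.75), CCNF (-0.70) and FBXW7 (-0.67) were lower in siRNF40, and DDB1 (0.40), CUL4A (0.32) and CKS1B (0.46) were higher, by limma. SETD8 was lower by 0.17 (adjusted p = 0.0400), a call that held in 9 of 19 alternatives. Scaling to equal totals moved the calls over all genes from 4704 higher and 4706 lower to 3278 and 6324, with a median of -0.19, and ended the call of CUL4A.

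Per kb of transcript, the order of the siControl levels was CKS1B (2744 ± 10.5, SD, n = 3), DDB1 (2316 ± 76.2), SETD8 (1479 ± 70.0), FBXO5 (980 ± 30.2), CUL4A (875 ± 29.2), CUL4B (735 ± 26.5), DTL (490 ± 14.3), CCNF (373 ± 4.82), FBXW7 (229 ± 3.67) and SKP2 (154 ± 0.739). No neighbours in that order overlapped in their siControl libraries. In siRNF40, DTL moved to the end of the order at 92.7 ± 8.24 per kb, beside SKP2 at 100.4 ± 10.4, and these libraries overlapped, from 86.8 to 102.1 for DTL and from 91.7 to 112 for SKP2. The order rests on the transcript length taken for each gene.

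Sequence is shown for the genes whose 3′ untranslated region (3′ UTR) holds the 7-base word GTCTTCA. An earlier analysis of these libraries picked that word out of all 7-base words as most tied to lower genes in siRNF40, so its relation to siRNF40 is no independent observation. In GENCODE 29 transcripts, read on the sense strand, DTL held it once in the 3′ UTR and once in the coding sequence, CUL4B held it at 2 places in the 3′ UTR and FBXW7 at 1. DDB1, CUL4A, SETD8, SKP2, CKS1B, FBXO5 and CCNF held none in the 3′ UTR. The sites lie at chr1:212103206-212103212 (plus strand), chrX:120526495-120526501 and chrX:120525822-120525828 (minus strand) and chr4:152322150-152322156 (minus strand) in GRCh38, and are given 5′ to 3′ with the word in capitals.
DTL, 3′ UTR position 266: ttgaatgaataGTCTTCActttttaaatt
CUL4B, 3′ UTR position 260: gaacgtacctgGTCTTCAtgaattcctct
CUL4B, 3′ UTR position 933: tggacagttttGTCTTCAacttggaccaa
FBXW7, 3′ UTR position 725: gctagaagtagGTCTTCAaatatgggatt

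The 3 genes with the word had log2 values of -2.40 (DTL), -1.02 (CUL4B) and -0.55 (FBXW7) in siRNF40. In siTG2 they had -0.94, 0.13 and 0.12. The word was present in 14.2% of 13096 protein-coding genes tested whose 3′ UTR had 50 or more bases. In siRNF40, 51.8% of those with it and 25.2% of those without it were called lower, with medians of -0.32 and 0.02. In siTG2 the medians were -0.00 and -0.03. The genes with the word also had longer 3′ UTRs, with a median of 3080 bases against 1062, and the part of UTR length was not tested here. FBXO5 fell by 1.00 in siRNF40 with a 3′ UTR of 634 bases that does not contain these letters. Of 119 pathway genes described below with a transcript that could be searched, 19 held the word, and 13 of these were called lower in siRNF40, against 37 of the 100 without it. The transcript taken for each gene matters: with the APPRIS principal transcript, tried first, CUL4B has a 3′ UTR of 120 bases without the word, CUL4A has a 3′ UTR of 0 bases, and 12.9% of genes hold the word, while DTL and FBXW7 still hold it at 1 place each. The rule of the longest complete transcript was adopted after that output had been seen.

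**Figure D4:**
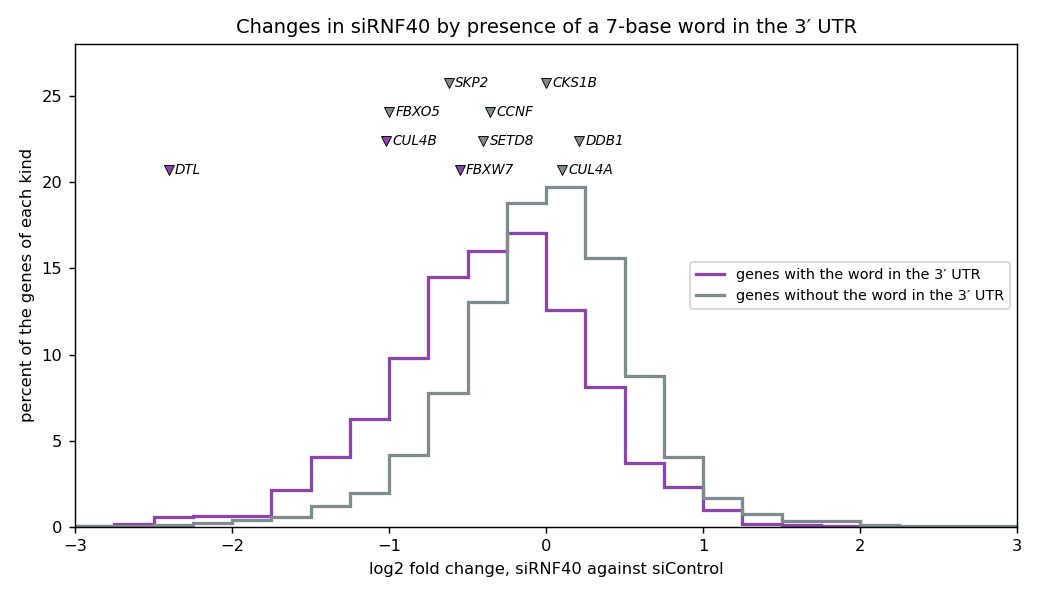
Distribution of log2 fold changes in siRNF40 against siControl for 1864 genes with the 7-base word in the 3′ UTR (purple) and 11232 without it (grey), in bins of 0.25, as percent of each kind. Triangles mark the 10 genes, purple where the 3′ UTR holds the word; DTL, CUL4B and FBXW7 lie at -2.40, -1.02 and -0.55.

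The promoters of the 10 genes were read from RefSeq (GRCh38.p14), as the 250 bases before each annotated start, and all 10 symbols matched, SETD8 as KMT5A. Words of E2F sites (TTTGGCGC or TTTCCCGC), of the cell cycle homology region (CHR, TTTGAA) and of the CCAAT box (CCAAT) were searched on both strands. They occur in 1.93%, 13.3% and 32.0% of 35116 such windows. DTL had an E2F word and a CCAAT box. CKS1B, CCNF and FBXO5 (in the second of its annotated windows) each had a CHR word with 4 or 5 CCAAT boxes, where 2 boxes of FBXO5 overlap on opposite strands. CUL4A had an E2F word in 1 of 4 windows. CUL4B had a CHR word with a CCAAT box in 1 of 4 windows and 2 CCAAT boxes in another. FBXW7 had a CHR word in 1 of 4, SETD8 had a CCAAT box in 1 of 2, and DDB1 and SKP2 had none of these letters. The window of DTL, which holds no CHR word, is shown beside those of CKS1B, CCNF and FBXO5. The latter windows are shown because these genes hold the same words and differed in response. In siRNF40 CKS1B had a log2 fold change of -0.00, while CCNF fell by 0.36 and FBXO5 by 1.00. In siTG2 the values were -0.46, 0.34 and -0.25. Matches are in capitals, and a match is a string of letters, not a measured site.
DTL, chr1:212035498-212035747, plus strand: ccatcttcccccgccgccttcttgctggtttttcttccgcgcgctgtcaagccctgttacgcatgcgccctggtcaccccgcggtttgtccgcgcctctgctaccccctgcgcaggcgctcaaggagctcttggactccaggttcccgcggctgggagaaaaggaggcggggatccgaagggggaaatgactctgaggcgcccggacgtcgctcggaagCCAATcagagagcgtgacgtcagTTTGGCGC
CKS1B, chr1:154974431-154974680, plus strand: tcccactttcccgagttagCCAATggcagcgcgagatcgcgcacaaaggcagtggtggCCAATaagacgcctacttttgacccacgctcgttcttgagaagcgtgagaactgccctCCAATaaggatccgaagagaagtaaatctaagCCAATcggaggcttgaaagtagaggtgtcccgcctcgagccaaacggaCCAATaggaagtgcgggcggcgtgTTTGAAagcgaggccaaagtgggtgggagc
CCNF, chr16:2429197-2429446, plus strand: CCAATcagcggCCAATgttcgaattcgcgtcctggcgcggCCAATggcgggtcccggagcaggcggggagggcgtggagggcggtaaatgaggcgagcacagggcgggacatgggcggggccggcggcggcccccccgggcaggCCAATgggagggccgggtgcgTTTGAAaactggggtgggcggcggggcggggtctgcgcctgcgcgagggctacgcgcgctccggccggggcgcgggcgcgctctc
FBXO5, chr6:152983042-152983291, minus strand: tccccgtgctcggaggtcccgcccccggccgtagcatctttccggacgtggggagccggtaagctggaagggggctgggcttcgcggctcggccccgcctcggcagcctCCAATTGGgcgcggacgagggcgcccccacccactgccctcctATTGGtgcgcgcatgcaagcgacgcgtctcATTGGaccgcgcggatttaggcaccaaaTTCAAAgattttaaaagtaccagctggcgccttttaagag

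Across the pathways of these ligases, 120 genes that are not among the 10 were listed in 9 groups. The ligases act on proteins, while all values here are of messenger RNA. A change of a substrate transcript therefore does not measure its degradation. In siRNF40, 51 (42.5%) were called lower and 22 (18.3%) higher, where 23.6% and 21.7% of all genes tested were. In siTG2, 33 (27.5%) were called lower and 10 (8.33%) higher, where 18.5% and 12.8% of all genes were, so the share called higher was below that of all genes in both. The shares of all genes are over 17663 genes, of which 13678 were protein-coding on primary chromosomes. Of protein-coding genes with a searched 3′ UTR, 23.4% without the word GTCTTCA and 21.4% with it were called lower in siTG2. In siRNF40, 25.2% and 51.8% of them were. The median log2 fold change of the 120 genes was -0.15 in siRNF40 and -0.12 in siTG2. The siTG2 count became 23 lower and 18 higher under quantile normalization, and 19 lower and 20 higher under equal totals. Under equal totals, genes called lower outnumbered those called higher in siTG2 among substrates and partners of DTL (2 and 1) and cyclin F substrates (4 and 3). They also did among FBXW7 substrates with its antagonist (6 and 2), in the APC/C (3 and 1) and in PCNA ubiquitination (3 and 2). The reverse held there for the other CUL4 parts (1 and 6), the SCF core (0 and 2), SKP2 substrates (1 and 2) and the NEDD8 list (0 and 2).

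Substrates and partners of the DTL ligase split in siRNF40, with 6 of 11 (54.5%) called lower and 3 (27.3%) higher. Of all genes, 23.6% and 21.7% were. The messenger RNA of CDKN1A, a cell cycle inhibitor whose protein DTL sends to degradation, rose by 1.78 on the log2 scale (limma, adjusted p = 5.35e-13). Its normalized counts went from 21567 ± 479 to 74315 ± 5888 (SD, n = 3). Whether the level of DTL had a part in this was not tested. GMNN (geminin, which binds CDT1) fell by 1.08 and CHEK1 (a checkpoint kinase) by 0.88. In siTG2, 3 of 11 (27.3%) were called lower and 1 (9.09%) higher, where 18.5% and 12.8% of all genes were. CDT1 fell there by 0.91 (adjusted p = 2.45e-05), FBXO11 by 0.58 and PCNA by 0.30, the last not called under either other scaling. The siTG2 mean of CDKN1A was 21298, with a log2 change of -0.02 (adjusted p = 0.857).

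Among 23 other CUL4 ligase parts and receptors, 8 (34.8%) were called lower and 3 (13.0%) higher in siRNF40. Of all genes, 23.6% and 21.7% were. DDB2, the receptor for ultraviolet damage, rose by 0.75, while PHIP fell by 0.74 and DCAF11 by 0.62. In siTG2, 3 (13.0%) were called lower and 2 (8.70%) higher, both shares below those of all genes (18.5% and 12.8%), with DCAF16 down by 0.48 and DCAF6 up by 0.32.

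Of 12 genes of the SCF core and other F-box receptors, 4 (33.3%) were called lower and 2 (16.7%) higher in siRNF40. Of all genes, 23.6% and 21.7% were. In siTG2, 3 (25%) were called lower and 2 (16.7%) higher, where 18.5% and 12.8% of all genes were. The scaffold CUL1 had a log2 fold change of -0.03 in siRNF40 (adjusted p = 0.798). FBXO7 fell by 0.75 and FBXO31 rose by 0.73 in siRNF40, and BTRC rose by 0.34 in siTG2. Of the 6 SKP2 substrates, ORC1 fell by 1.86 and CDT1 by 0.69 in siRNF40, and CDKN1C (p57) rose by 0.96 in siRNF40 and by 1.01 in siTG2. CDKN1B, the best known SKP2 substrate, had -0.17 in siRNF40 (adjusted p = 0.0590) and 0.13 in siTG2 (adjusted p = 0.176).

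Of 10 cyclin F substrates, 9 (90%) were called lower and 0 higher in siRNF40, with a median of -0.75. Of all genes, 23.6% and 21.7% were. CDC6, which loads the replicative helicase, fell by 1.79, from 5869 ± 368 to 1702 ± 167 normalized counts (limma, adjusted p = 3.11e-12). EXO1, an exonuclease of DNA repair, fell by 1.26 and RRM2, a subunit of ribonucleotide reductase, by 1.19. In siTG2, 6 (60%) were called lower and 1 (10%) higher, where 18.5% and 12.8% of all genes were. EXO1 was down there by 0.73, CDC6 by 0.65 and E2F1 by 0.60. CCNF itself lay on opposite sides of the controls in these groups, and the activity of cyclin F on these proteins was not measured.

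FBXW7 substrates and its antagonist numbered 12, of which 5 (41.7%) were called lower and 4 (33.3%) higher in siRNF40. Of all genes, 23.6% and 21.7% were. CCNE2 (cyclin E2) fell by 2.51, from 454 ± 4.08 to 79.2 ± 7.85 normalized counts (limma, adjusted p = 7.44e-11), and MED13 fell by 1.14. In siTG2, 7 (58.3%) were called lower and 1 (8.33%) higher, where 18.5% and 12.8% of all genes were. KLF5 fell there by 0.81 and MYC by 0.62. CCNE2 rose by 0.46 (limma, adjusted p = 0.0161, lost without siControl replicate 1 or siTG2 replicate 1 or 3). Between the knockdowns, MYC was higher in siRNF40 by 1.35 (adjusted p = 5.10e-12) and the value of CCNE2 was -2.97.

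Of 18 APC/C genes, the complex that FBXO5 inhibits, 8 (44.4%) were called lower and 1 (5.56%) higher in siRNF40. In siTG2, 5 (27.8%) were called lower and 0 higher. Of all genes, 23.6% were called lower and 21.7% higher in siRNF40, and 18.5% and 12.8% in siTG2. UBE2C, the ubiquitin-conjugating enzyme of the APC/C, fell by 0.83 in siRNF40 and by 1.32 in siTG2. The subunits ANAPC4 and CDC27 fell by 0.86 and 0.77 in siRNF40. ANAPC16 had 0.17 in siRNF40 (adjusted p = 0.0634) and fell by 0.70 in siTG2. A further 22 genes belong to the NEDD8 cycle, CAND1 and the COP9 signalosome, which switch cullin ligases on and off. In siRNF40, 8 of them (36.4%) were called higher and 4 (18.2%) lower, led by UBE2M (up by 0.79) and DCUN1D1 (down by 0.75). In siTG2, 1 was called higher and 1 lower (4.55% each, below the shares of all genes). Of 9 genes that ubiquitinate PCNA or reverse it, 6 (66.7%) were called lower and 0 higher in siRNF40, with USP1 down by 1.04. In siTG2, 4 of the 9 (44.4%) were called lower and 1 (11.1%) higher.

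**Figure D5:**
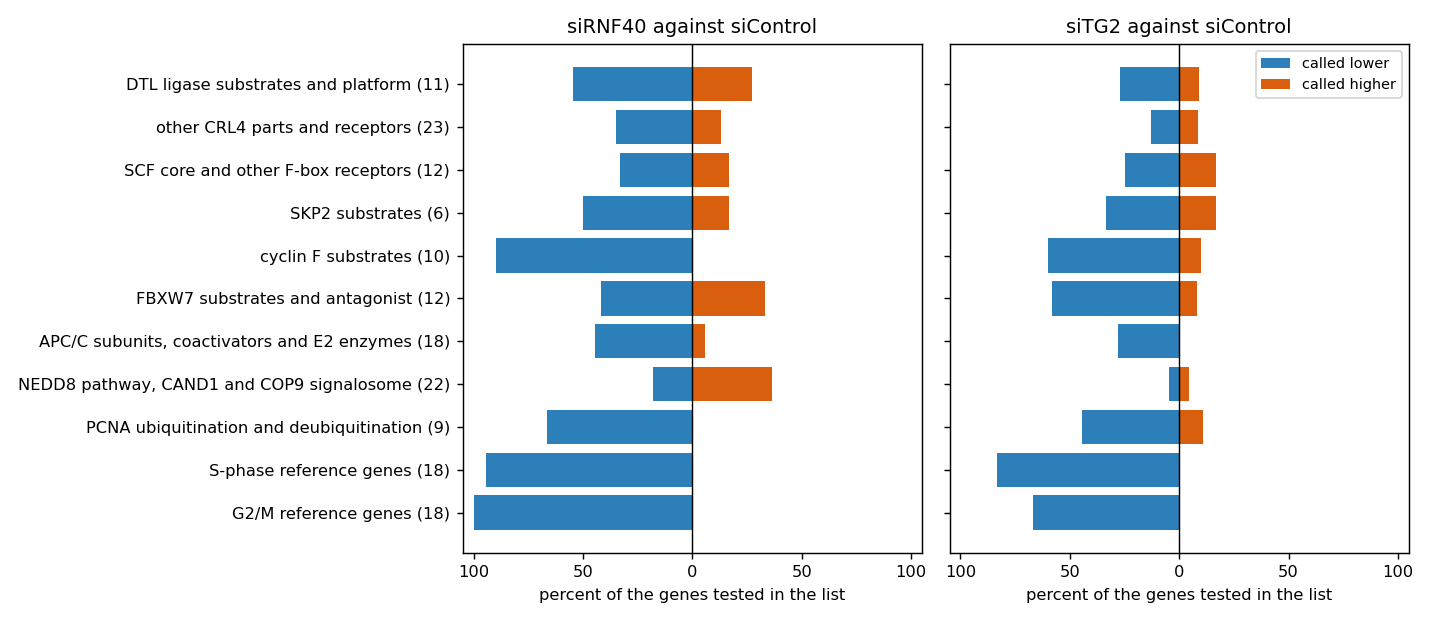
Percent of the tested genes of each list called lower (left of 0) or higher (right of 0) at an adjusted p under 0.05, in siRNF40 and siTG2 against siControl, with the number tested in brackets; the lists hold none of the 10 genes. Of 10 cyclin F substrates 9 were called lower in siRNF40 (23.6% of all genes), and of 22 NEDD8 pathway genes 8 were called higher (21.7%).

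The 10 genes also ran beside the reference genes of the cell cycle phases. In siRNF40, 17 of 18 S-phase and 18 of 18 G2 and mitosis reference genes were called lower, with medians of -0.80 and -0.89. Of all genes, 23.6% were. In siTG2, 15 of 18 and 12 of 18 reference genes were called lower, where 18.5% of all genes were, with medians of -0.48 and -0.27. Under scaling to equal totals, 10 and 8 of them were called lower. DTL, at -2.40 in siRNF40, the value it was chosen for, lay below the lowest of these reference genes (-1.48, POLA1). So did CCNE2 (-2.51), ORC1 (-1.86) and CDC6 (-1.79) of the pathway lists. CKS1B (-0.00), CUL4A (0.10) and DDB1 (0.21) lay above the highest reference gene in siRNF40 (-0.11, MCM7). In siTG2, CCNF (0.34), CUL4B (0.13) and FBXW7 (0.12) lay above all 36 of them.

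The profile most like that of DTL was sought among 11386 protein-coding genes with a mean of at least 100, by Euclidean distance of log2(normalized count + 1) over the 9 libraries, each gene centred on its siControl mean. The nearest 5 were ESCO2 (distance 0.535), GGH (0.556), OIP5 (0.638), RAB6A (0.833) and ASF1B (0.906). DTL and each of these 5 genes held the word GTCTTCA at 1 place in the 3′ UTR, where 14.2% of all genes searched held it. Among genes searched with a siRNF40 log2 fold change from -2.5 to -2.25, 11 held it and 12 did not. From -2.25 to -2, 12 held it and 25 did not. The word had been picked for its tie to lower genes in siRNF40, and the 5 genes for likeness to DTL. Their sharing of the word is therefore a description, and the part of the word in the likeness was not tested. ESCO2 acetylates cohesin, GGH cleaves polyglutamate from folates, OIP5 acts in centromere assembly, RAB6A is a Golgi GTPase and ASF1B is a histone chaperone. OIP5, the least abundant of them, had means of 351, 81.5 and 199 normalized counts in siControl, siRNF40 and siTG2. Among the other 9 genes of the set the nearest was FBXO5 (distance 2.72), with 394 genes nearer to DTL.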

How the data were processed

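Messenger RNA of 9 HCT116 libraries (siControl, siRNF40 and siTG2, 3 each) was analysed. Per the submitters' processing notes, Trim Galore 0.4.1, STAR 2.7.0, HTSeq 0.12.4 and DESeq2 were used, with builds hg19 and hg38; gene positions in the table are hg19. Strand use in counting is not given in the sources used here. The authors deposited a table whose signal values are gene counts over DESeq2 size factors. Columns named NC were taken as siControl because their averages match the control means in the deposited comparison files. All values (100%) lay within 0.001 of a whole read after division by the step of their library. The deposited comparison tables give a log2 fold change, its standard error, a p-value and a Wald score that was not used here, and the authors' deposited table differs from the log2 fold changes given here by at most 0.0083 (siRNF40) and 0.0071 (siTG2) for the 10 genes.

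From these values, limma 3.58.1 with an intensity trend was fitted in R 4.3.3 on log2(value + 1) for the 17663 genes with a mean of at least 10, with all 9 libraries in the same fit and Benjamini-Hochberg adjustment over all genes, two-sided, at 0.05. Fold changes are on the log2(value + 1) scale. Alternatives were other pseudocounts, filters and scalings, a fit of 6 libraries, each library left out, a replicate block, and edgeR 4.0.16 and DESeq2 1.42.0 on the recovered reads. The test was run on simulated data, with a pass criterion that was not met at first and was then narrowed to strongly changed genes with high counts, while the model was left as it was. Ratios were compared by exact permutation tests.

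The 10 genes and the lists were chosen with earlier results of these data known. In each list, named genes are up to 3 called genes per contrast with the largest change among those averaging 50 or more, and up to 2 uncalled genes with the highest mean, of which the text gives a part. Sequences come from GENCODE 29 (GRCh38) and RefSeq promoters.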

Additional observations from a re-analysis of the deposited data

Results flagged for a closer look

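Each result here is a gene whose response to siRNF40 differed from its response to siTG2 in the direct contrast by limma, given as log2 of siRNF40 over siTG2. CUL4B (-1.15), FBXO5 (-0.75), CCNF (-0.70) and FBXW7 (-0.67) were lower in siRNF40 than in siTG2 in all 19 alternatives. DDB1 (0.40) and CKS1B (0.46) were higher in all 19, and CUL4A (0.32) in 18, with an adjusted p of 0.081 under scaling to equal totals. SETD8 was lower by a log2 value of -0.17 (adjusted p = 0.0400), which held in 9 of 19. CCNF was the gene of the set called in opposite directions against siControl in every alternative, at -0.36 in siRNF40 and 0.34 in siTG2. DDB1 was called in opposite directions too, at 0.21 and -0.19, but not under either other scaling or without siControl replicate 3. SKP2 was not called in the direct contrast (0.11), and DTL was not tested there.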

How the results depend on the processing

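In siRNF40 against siControl, the 7 genes called kept their call and direction in all 19 alternatives, and CUL4A was also called higher under quantile normalization (0.18, adjusted p = 0.031), which makes 2 genes higher. In siTG2 against siControl, DTL, SKP2, CKS1B and CCNF kept their calls in all 19. Under quantile normalization 3 of the 10 genes were called lower and 2 higher, and under scaling to equal totals 3 lower and 3 higher, and DDB1 turned to 0.018 (adjusted p = 0.84) under the former. With a library left out, 4 to 7 of the 10 were called lower, the 4 without siControl replicate 3, and 5 to 11 pathway genes were called higher, with 6 without siControl replicate 1 and 5 without siTG2 replicate 3. Scaling to equal totals gave 3872 genes higher and 1890 lower in siTG2, and 20 pathway genes higher and 19 lower there, with 18 higher under quantile normalization. In siRNF40 against siTG2 it gave 23 pathway genes higher and 60 lower, in place of 36 and 41. The cause of these shifts was not tested.

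Same-numbered libraries of different groups had correlations of -0.075 to 0.081 between their deviations from the group means (9 pairs). Libraries of different number had -0.079 to 0.092 (18 pairs). The values thus show no sign of pairing by number, which does not settle whether the samples were handled as matched batches. With a replicate block, 3693 genes were called higher and 4042 lower in siRNF40 and 2122 and 3042 in siTG2, and among the 10 genes the calls of FBXO5 in siTG2 and of SETD8 between the knockdowns ended. Depth limits none of the 10 genes strongly, since the lowest library value was 324 normalized counts. Per-kb levels depend on the transcript taken, and overlapping genes on the opposite strand limit DDB1 and CUL4A.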
